A study of Mus musculus with 9 samples.

Results

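A set of 42 genes for DNA replication and cell division was followed across the left ventricle of mice after sham surgery, myocardial infarction (MI) or infarction with BPD treatment (MI+BPD). The genes were taken by symbol from the 55367 symbols of the count table and fall into 18 replication genes and 24 mitosis genes. Each group had 3 libraries of bulk RNA sequencing (150 bp paired-end reads). The protocol describes the tissue as infarct core with the region around it, taken 14 days after infarction. A sham heart has no such region, and no day is stated for it. The study asked whether BPD, aimed at the proliferative phase of healing, goes together with weaker fibroblast activation. BPD stands unexplained in the labels, and its dose and schedule, like the strain, sex and age of the mice, were not given. The libraries are numbered 1 to 3 in each group, and nothing says whether they came from separate animals, so p-values measure the spread between these libraries.

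A dividing cell first licenses its replication origins by loading the Mcm helicase, then opens and copies the DNA in S phase, and finally separates the copies in mitosis. E2F transcription factors switch on many replication genes at the entry into S phase, whereas many mitosis genes are held down by the DREAM complex in resting cells and switched on later, in G2 phase, by MuvB complexes with B-Myb and FoxM1. Adult heart muscle cells rarely divide, while fibroblasts, endothelial cells and immune cells divide in the weeks after an infarct. In bulk tissue, fewer cells of a type and less RNA per cell cannot be told apart.

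Promoter sequences are shown because they carry letters that differ between the replication and the mitosis genes. RefSeq promoters (GRCm38.p6) were found for 34 of the 42 genes, 15 for replication and 19 for mitosis, with 36 promoters in all. Each window held 250 bases before the transcription start and 50 after it, and both strands were searched. The letters sought were an E2F motif as any of TTTCCCGC, TTTCGCGC, TTTGCCGC or TTTGGCGC, the cell cycle genes homology region (CHR) TTTGAA, and the CCAAT box CCAAT. The E2F motif and CHR are textbook contact points of E2F and MuvB complexes, and CCAAT is bound by NF-Y. The 200 bases before the start are printed 5′ to 3′ on the strand of the gene, with the letters of any match on either strand in capitals. Matches can overlap, as when TTTGGCGC is followed by the reverse complement of TTTCGCGC in Mcm6.
Mcm5 (chr8:75109309-75109508, plus strand): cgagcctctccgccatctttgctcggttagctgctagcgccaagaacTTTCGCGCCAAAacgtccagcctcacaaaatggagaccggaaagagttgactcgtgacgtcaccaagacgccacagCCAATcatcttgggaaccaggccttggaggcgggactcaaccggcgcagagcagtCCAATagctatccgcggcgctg
Mcm6 (chr1:128359706-128359905, minus strand): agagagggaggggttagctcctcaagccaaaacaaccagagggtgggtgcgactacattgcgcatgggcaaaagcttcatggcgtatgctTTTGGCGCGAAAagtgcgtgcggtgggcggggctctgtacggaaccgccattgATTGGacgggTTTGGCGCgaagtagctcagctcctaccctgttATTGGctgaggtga
Cdk1 (chr10:69352913-69353112, minus strand): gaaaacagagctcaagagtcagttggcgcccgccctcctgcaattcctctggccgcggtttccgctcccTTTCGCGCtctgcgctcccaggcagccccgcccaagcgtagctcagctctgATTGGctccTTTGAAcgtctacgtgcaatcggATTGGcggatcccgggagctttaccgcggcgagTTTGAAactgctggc
Top2a (chr11:99024190-99024389, minus strand): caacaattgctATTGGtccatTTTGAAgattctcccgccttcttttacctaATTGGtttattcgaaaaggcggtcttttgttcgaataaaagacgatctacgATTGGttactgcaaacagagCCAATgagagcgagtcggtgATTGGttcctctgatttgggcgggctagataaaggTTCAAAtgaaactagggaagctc
Ube2c (chr2:164769729-164769928, plus strand): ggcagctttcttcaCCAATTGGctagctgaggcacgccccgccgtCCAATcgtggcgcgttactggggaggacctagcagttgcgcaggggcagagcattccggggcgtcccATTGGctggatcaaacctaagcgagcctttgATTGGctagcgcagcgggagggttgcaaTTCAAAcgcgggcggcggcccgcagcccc
Ccnb1 (chr13:100786487-100786686, minus strand): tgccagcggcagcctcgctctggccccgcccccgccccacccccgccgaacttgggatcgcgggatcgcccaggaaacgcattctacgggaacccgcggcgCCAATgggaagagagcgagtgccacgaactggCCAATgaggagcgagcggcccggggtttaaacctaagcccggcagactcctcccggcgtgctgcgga
The helicase genes Mcm5 and Mcm6 held E2F letters and CCAAT boxes and no CHR. Cdk1, the mitotic kinase, held all of these, Top2a and Ube2c held CHR and several CCAAT boxes, and Ccnb1 held CCAAT boxes alone.

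E2F letters stood in 6 of 16 replication promoters (37.5%), those of Cdc6, Cdt1, Mcm3, Mcm5, Mcm6 and Mcm7, and in 1 of 20 mitosis promoters (5.0%), that of Cdk1. Of all 32851 promoters in the RefSeq table, 2.26% held them. CHR showed the opposite split, in 3 of 16 replication promoters (18.8%) and 16 of 20 mitosis promoters (80%), against 17.9% of all promoters. CCAAT boxes were frequent in both, at 68.8% and 90.0% against 37.4%. CHR together with CCAAT was found in 18.8% of the replication and 75% of the mitosis promoters, against 6.95% of all. The same split was present in further genes of each process, with E2F letters in 27.1% of the promoters of other replication genes and 10.4% of those of other mitosis genes, and CHR in 14.6% and 60.4%. A match describes letters in a window and not a bound site.

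**Figure D1:**
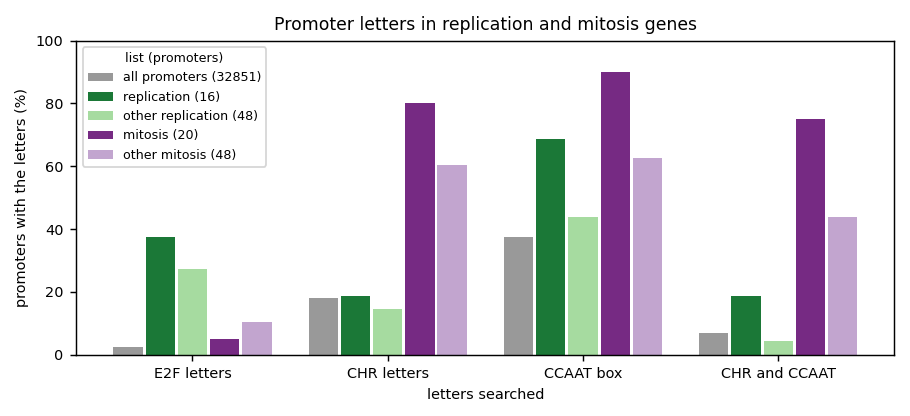
Share of promoters (y axis, percent) that hold E2F letters, CHR letters, a CCAAT box, or CHR with CCAAT (x axis), for all promoters and 4 gene lists, with the number of promoters in the legend. E2F letters peak in the replication genes (37.5%) and CHR in the mitosis genes (80%).

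The libraries held 14451410 to 19269072 counts. Levels are in CPM, counts scaled to a common library total, after scaling by the trimmed mean of M values (TMM), and ± marks the standard deviation (SD) of 3 libraries beside a CPM value and the standard error (SE) beside a log2 change. A single read was worth 0.0762 to 0.0915 CPM in sham and 0.0396 to 0.0599 CPM in the infarct groups. Genes of mitochondrial DNA took 34.4% to 35.2% of the counts of sham libraries, 11.4%, 11.8% and 18.2% of MI 1, 2 and 3, and 25.7%, 17.6% and 17.7% of MI+BPD 1, 2 and 3. Scaling by library totals alone shifted the median log2 change of all genes in MI against sham from 0.07 to 0.81, in MI+BPD against MI from 0.003 to -0.20, and in MI+BPD against sham from 0.04 to 0.57. Changes below are relative to the TMM scale, and each direction of a named replication or mitosis gene that differs with library totals is given with both values.

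All 42 genes had enough counts to be tested, among 15138 genes in all. Their counts per library ran from 2 to 421 in sham and from 19 to 868 in the infarct groups. Cdt1, Ccnb1, Ccnb2, Foxm1, Plk1, Aurka, Aurkb, Birc5, Bub1, Ube2c and Ect2 had under 10 counts in every sham library and passed the filter through the infarct groups, so these 11 had to differ. Ccna2, Cdk1, Tpx2, Cenpe, Gins2 and Ccne1 had under 10 counts in some sham libraries but not in all. The filter needs 3 libraries, so these genes also passed only with infarct libraries, and their rise was in part fixed by it. In sham, per kb of exon, the replication genes had a median level of 0.865 CPM per kb and the mitosis genes 0.207. Pcna (12.3 CPM per kb), the sliding clamp of the polymerases, and Cenpa (5.36 CPM per kb), the histone variant of centromeres, had the highest sham levels of their groups. Bub1 (0.0574 CPM per kb), a spindle checkpoint kinase, had the lowest of all 42.

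After infarction most of these genes rose, with a larger median change in the mitosis genes than in the replication genes. In MI against sham, 37 of the 42 genes were called higher at an adjusted p under 0.05, against 37.0% of all genes tested, and 2 were called lower, against 31.9%. The 3 MI libraries lay above the 3 sham libraries for 38 genes, against 40.1% of all genes. Of the replication genes, 15 of 18 were called higher and 0 lower, with a median log2 change of 1.04 and a range of -0.09 to 2.39. Of the mitosis genes, 22 of 24 were called higher and 2 lower, with a median of 2.56 and a range of -1.07 to 3.42. The median over all genes tested was 0.07. Without the 11 genes under 10 counts in every sham library, 14 of 17 replication genes were called higher and 0 lower (median 1.03). On the same terms 12 of 14 mitosis genes were called higher and 2 lower (median 2.37). These values still hold Ccna2, Cdk1, Tpx2, Cenpe, Gins2 and Ccne1, which also passed the filter only with infarct libraries. No count was made without them.

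**Figure D2:**
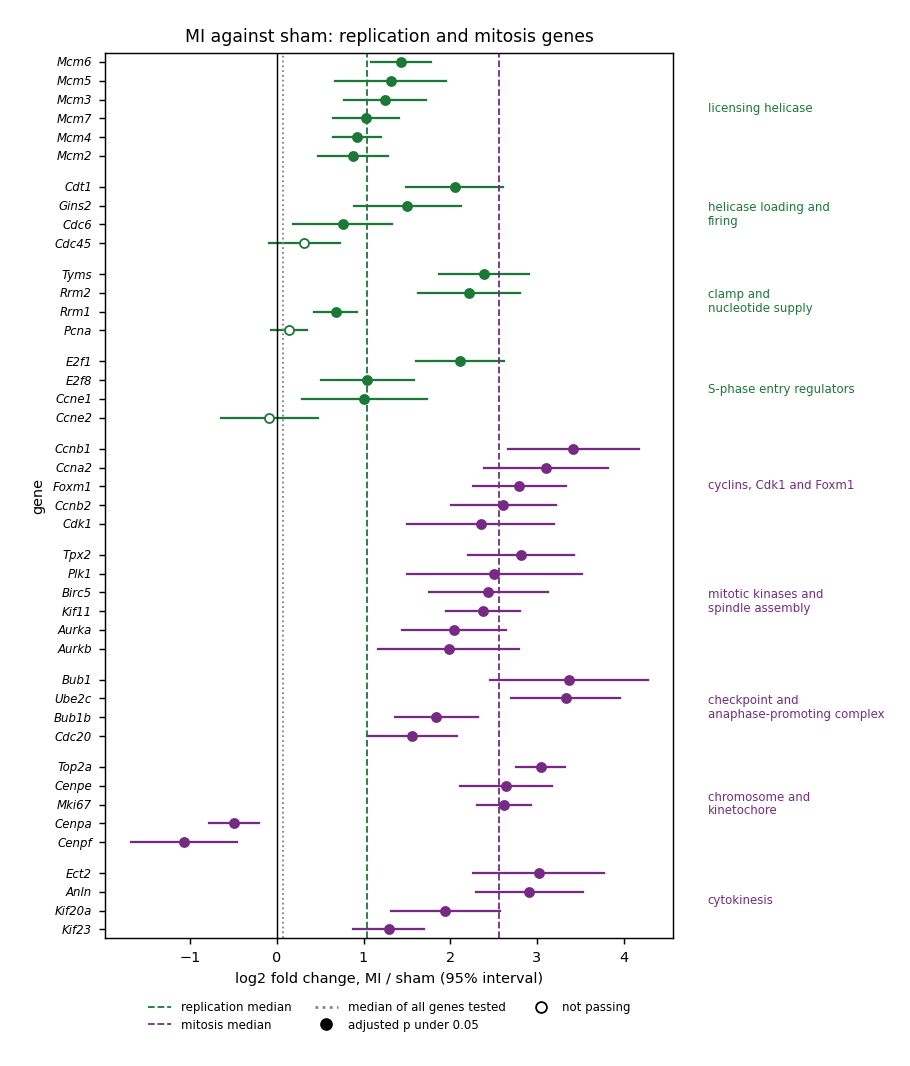
Log2 fold change of MI over sham (x axis) with its 95% interval for each of the 42 genes (y axis), ordered by role, with filled points called at an adjusted p under 0.05. Replication genes (green) centre on 1.04 and mitosis genes (purple) on 2.56, and Cenpa and Cenpf lie below 0.

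The Mcm helicase, the ring that is loaded onto origins in G1 phase and unwinds DNA in S phase, rose as a whole, with 6 of 6 subunits called higher at log2 changes of 0.88 to 1.43. Mcm6 stood at 10.6, 9.71 and 10.1 CPM in sham, at 27.0, 31.2 and 24.1 in MI, and at 20.1, 29.4 and 26.9 in MI+BPD. All infarct libraries lay above all sham libraries, and the ranges of MI and MI+BPD overlapped. Mcm6 had the largest change of the ring, 1.43 ± 0.15 in MI against sham (2.70-fold, adjusted p = 7.52e-05). Mcm2 stood at 7.04, 5.95 and 6.71 CPM in sham, at 9.82, 15.1 and 11.3 in MI, and at 8.86, 11.5 and 10.7 in MI+BPD. It had the smallest change of the 6, 0.88 ± 0.18 (adjusted p = 0.00189), with MI 2 well above the other MI libraries. Mcm3, Mcm4, Mcm5 and Mcm7 lay between these, and in Mcm5 the sham libraries themselves ranged from 2.29 to 5.34 CPM.

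Of the 4 genes that load and fire the helicase, 3 were called higher. Cdt1 among them was under 10 counts in every sham library and had to differ by the filter. Gins2, under 10 counts in Sham 1, also passed only with infarct libraries. Cdt1, which brings the ring to the origin, stood at 0.732, 0.700 and 0.534 CPM in sham, at 2.69, 2.89 and 2.58 in MI, and at 1.56, 2.21 and 2.34 in MI+BPD. Its 3 groups did not overlap, with MI highest, and the change in MI was 2.05 ± 0.25 (4.15-fold, adjusted p = 1.2e-04). Cdc45, which turns the loaded ring into an active helicase, stood at 3.02, 2.97 and 2.52 CPM in sham, at 3.29, 4.03 and 3.27 in MI, and at 4.07, 3.75 and 3.05 in MI+BPD. The MI libraries lay just above sham, and the change of 0.32 ± 0.18 did not pass (adjusted p = 0.144). With library totals alone it was 1.05 (adjusted p = 6.36e-04), and limma-voom gave 0.43 (adjusted p = 0.0384). Gins2, a partner of Cdc45, rose by 1.5 ± 0.27, and 67.3% of its exon bases are shared with the opposite-strand gene Gse1, from which unstranded counts could not separate it. Cdc6, the loading ATPase, rose by 0.76 ± 0.25 (adjusted p = 0.0228). Its call was lost in DESeq2 (adjusted p = 0.0620), without Sham 1 (0.0572), Sham 2 (0.0792) or MI 2 (0.0624), and without MI 1 and MI+BPD 1 together (0.0508).

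The 3 genes of nucleotide supply were called higher, Rrm1 by less than any Mcm gene, while the clamp did not pass. Tyms, which makes thymidylate, stood at 1.65, 1.57 and 2.13 CPM in sham, at 8.99, 10.1 and 9.25 in MI, and at 5.51, 8.93 and 9.40 in MI+BPD. It was the largest change of the replication genes, 2.39 ± 0.23 (5.25-fold, adjusted p = 4.67e-05), and MI+BPD 1 lay well below the other 2 MI+BPD libraries. Rrm2, the cell cycle regulated subunit of ribonucleotide reductase, stood at 1.83, 1.57 and 2.82 CPM in sham, at 10.02, 12.01 and 7.23 in MI, and at 5.27, 6.72 and 6.60 in MI+BPD. The 3 groups did not overlap, with MI+BPD between sham and MI, and the change in MI was 2.22 ± 0.26 (adjusted p = 1.06e-04). Rrm1, the large subunit of the same enzyme, stood at 20.4, 19.1 and 19.9 CPM in sham, at 32.3, 35.0 and 27.6 in MI, and at 33, 27.7 and 28.3 in MI+BPD. It rose by 0.68 ± 0.11 (adjusted p = 4.47e-04), and MI and MI+BPD overlapped. Pcna stood at 28.2, 28.3 and 32.1 CPM in sham, at 29.1, 35.3 and 33.4 in MI, and at 35.1, 36.6 and 34.3 in MI+BPD. Sham and MI overlapped, and the change of 0.14 ± 0.09 (95% interval -0.06 to 0.35, adjusted p = 0.188) did not pass. With library totals alone Pcna changed by 0.88 (adjusted p = 4.67e-05), close to the shift of all genes.

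Among the regulators of S-phase entry, 3 of 4 were called higher. E2f1, the activator of many replication genes, stood at 1.19, 0.875 and 1.45 CPM in sham, at 5.30, 5.74 and 4.23 in MI, and at 3.11, 3.95 and 3.71 in MI+BPD. The 3 groups did not overlap, with MI highest, and E2f1 rose by 2.11 ± 0.23 in MI (4.31-fold, adjusted p = 7.27e-05). E2f8, an atypical E2F that represses such genes late in S phase, rose by 1.04 ± 0.24, and Gm2788 shares 11.2% of its exon bases. Ccne1 and Ccne2 encode the E cyclins that activate Cdk2, and they differed. Ccne1 stood at 0.640, 0.525 and 1.07 CPM in sham, at 1.35, 1.71 and 1.52 in MI, and at 1.2, 1.59 and 0.965 in MI+BPD. It rose by 1.01 ± 0.32 in MI (adjusted p = 0.0187), a call that was lost without Sham 1 (adjusted p = 0.0657), Sham 2 (0.0728) or MI 2 (0.0589). Ccne1 was under 10 counts in Sham 1 and Sham 2 and passed the filter only with infarct libraries. Ccne2 stood at 3.84, 4.37 and 5.26 CPM in sham, at 3.21, 5.21 and 4.33 in MI, and at 4.97, 5.44 and 3.25 in MI+BPD. All 3 groups overlapped, and the change in MI was -0.09 ± 0.25 (95% interval -0.64 to 0.47, adjusted p = 0.776), or 0.65 (adjusted p = 0.0304) with library totals alone. The opposite-strand gene Ints8 shares 17.4% of the exon bases of Ccne2.

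The cyclins of mitosis, their kinase and the factor FoxM1 all rose, by 2.35 to 3.42. Ccnb1, Ccnb2 and Foxm1 among them were under 10 counts in every sham library and had to differ by the filter. Ccna2 and Cdk1 were under 10 counts in some sham libraries and also passed only with infarct libraries. Ccnb1, the cyclin that drives entry into mitosis, stood at 0.183, 0.700 and 0.457 CPM in sham (2, 8 and 6 reads), at 4.79, 5.70 and 4.14 in MI, and at 2.58, 2.16 and 1.93 in MI+BPD. Its 3 groups did not overlap, and its rise of 3.42 ± 0.34 in MI (10.7-fold, adjusted p = 5.11e-05) was the largest of the 42. Ccnb2, the second B cyclin, stood at 0.366, 0.437 and 0.610 CPM in sham, at 2.97, 3.42 and 2.44 in MI, and at 1.80, 2.31 and 1.98 in MI+BPD. It rose by 2.61 ± 0.27 in MI (adjusted p = 6.43e-05), again with MI+BPD between the other groups. Cdk1 stood at 0.640, 0.700 and 1.83 CPM in sham, at 5.58, 6.92 and 4.10 in MI, and at 4.79, 3.29 and 4.11 in MI+BPD. Sham 3 was the highest sham library and MI 3 the lowest MI library, and the change of 2.35 ± 0.38 (adjusted p = 4.62e-04) was the smallest of this role. Ccna2, the cyclin of S and G2 phase, rose by 3.10 ± 0.32, with 12.5% of its exon bases shared with Exosc9, and Foxm1, which activates late cell cycle genes, by 2.80 ± 0.24.

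Mitotic kinases and spindle proteins rose in 6 of 6 cases, by 1.98 to 2.81. Plk1, Aurka, Aurkb and Birc5 among them were under 10 counts in every sham library and had to differ by the filter. Tpx2 was under 10 counts in Sham 1 and also passed only with infarct libraries. Tpx2, which activates Aurora A on the spindle, stood at 0.549, 0.875 and 1.37 CPM in sham, at 5.86, 8.14 and 6.12 in MI, and at 5.51, 5.54 and 5.08 in MI+BPD. The infarct libraries lay far above sham, with a change of 2.81 ± 0.27 in MI (7.03-fold, adjusted p = 4.75e-05). Aurka, the Aurora A kinase of spindle poles, stood at 0.732, 0.437 and 0.686 CPM in sham, at 2.22, 3.09 and 2.39 in MI, and at 1.38, 1.59 and 1.37 in MI+BPD. Its 3 groups did not overlap, and it rose by 2.04 ± 0.27 in MI (adjusted p = 1.71e-04). Aurkb, the kinase of the chromosomal passenger complex, stood at 0.549, 0.175 and 0.610 CPM in sham (6, 2 and 8 reads), at 2.14, 1.67 and 1.56 in MI, and at 1.32, 1.44 and 1.17 in MI+BPD. It rose by 1.98 ± 0.36 in MI (adjusted p = 9.89e-04). Birc5 (survivin, of the same complex) rose by 2.44, Plk1 (the Polo-like kinase) by 2.51 and Kif11 (the motor that separates spindle poles) by 2.38.

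The spindle checkpoint and the machinery of anaphase rose in 4 of 4 cases, by 1.56 to 3.37. Bub1 and Ube2c among them were under 10 counts in every sham library and had to differ by the filter. Bub1 stood at 0.183, 0.262 and 0.305 CPM in sham (2, 3 and 4 reads), at 2.57, 3.50 and 1.93 in MI, and at 2.16, 2.62 and 1.42 in MI+BPD. It rose by 3.37 ± 0.40 in MI (10.3-fold, adjusted p = 1.17e-04), and the few sham reads left its 95% interval at 2.46 to 4.28. Cdc20, the activator of the anaphase-promoting complex, stood at 1.37, 0.875 and 0.839 CPM in sham, at 2.97, 3.01 and 3.08 in MI, and at 2.52, 2.46 and 1.98 in MI+BPD. Its MI libraries were nearly equal, and it rose by 1.56 ± 0.23 (adjusted p = 3.03e-04). Ube2c, the ubiquitin-conjugating enzyme of that complex, rose by 3.33 ± 0.28 (10.1-fold), and 22.8% of its exon bases are shared with the opposite-strand gene Tnnc2, which had 41 reads over all libraries. Bub1b, another checkpoint kinase, rose by 1.84 ± 0.21.

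The genes of chromosomes and kinetochores split, with 3 called higher and 2 called lower. Top2a, the topoisomerase that untangles sister chromatids, stood at 2.47, 2.54 and 2.21 CPM in sham, at 19.5, 22.4 and 17.6 in MI, and at 17.8, 17.6 and 16.8 in MI+BPD. It rose by 3.04 ± 0.13 in MI (8.24-fold, adjusted p = 3.89e-06), the smallest adjusted p of the 42, and MI+BPD overlapped MI at its lower edge. Mki67, a coat protein of mitotic chromosomes, rose by 2.62 ± 0.14, and Cenpe, a kinetochore motor, by 2.64 ± 0.24. Cenpe was under 10 counts in Sham 2 and passed the filter only with infarct libraries. Cenpf, a large kinetochore protein, stood at 22.5, 18.1 and 23.2 CPM in sham, at 9.82, 11.2 and 9.30 in MI, and at 24.6, 12.5 and 10.97 in MI+BPD. MI lay below sham, whereas MI+BPD 1 stood at the sham level, apart from the other MI+BPD libraries. Cenpf was called lower in MI (-1.07 ± 0.27, adjusted p = 0.00638), and with library totals alone it was at -0.33 and did not pass (adjusted p = 0.216). Cenpa stood at 34.2, 31.4 and 28.7 CPM in sham, at 19.1, 23.0 and 24.6 in MI, and at 24.3, 18.8 and 19.96 in MI+BPD. It was called lower in MI (-0.50 ± 0.13, adjusted p = 0.00674), and with library totals alone it turned to 0.23 and did not pass (adjusted p = 0.0698). The promoters of Cenpa and Cenpf both held CHR and CCAAT letters, as did most promoters of the mitosis genes.

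Cytokinesis genes rose in 4 of 4 cases, by 1.29 to 3.02. Ect2 among them was under 10 counts in every sham library and had to differ by the filter. Ect2, which activates RhoA at the division plane, stood at 0.457, 0.262 and 0.686 CPM in sham, at 4.95, 3.95 and 2.81 in MI, and at 3.47, 2.98 and 3.25 in MI+BPD. It rose by 3.02 ± 0.33 in MI (8.11-fold, adjusted p = 8.38e-05). Kif23, a motor of the central spindle, stood at 2.20, 1.57 and 1.68 CPM in sham, at 5.03, 4.40 and 3.87 in MI, and at 3.77, 3.80 and 3.66 in MI+BPD. The 3 groups did not overlap, and Kif23 rose by 1.29 ± 0.18 (adjusted p = 2.49e-04). Anln, the scaffold of the contractile ring, rose by 2.91, and Kif20a, another central spindle motor, by 1.94. Cdc23, on the opposite strand, shares 29.3% of the exon bases of Kif20a.

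**Figure D3:**
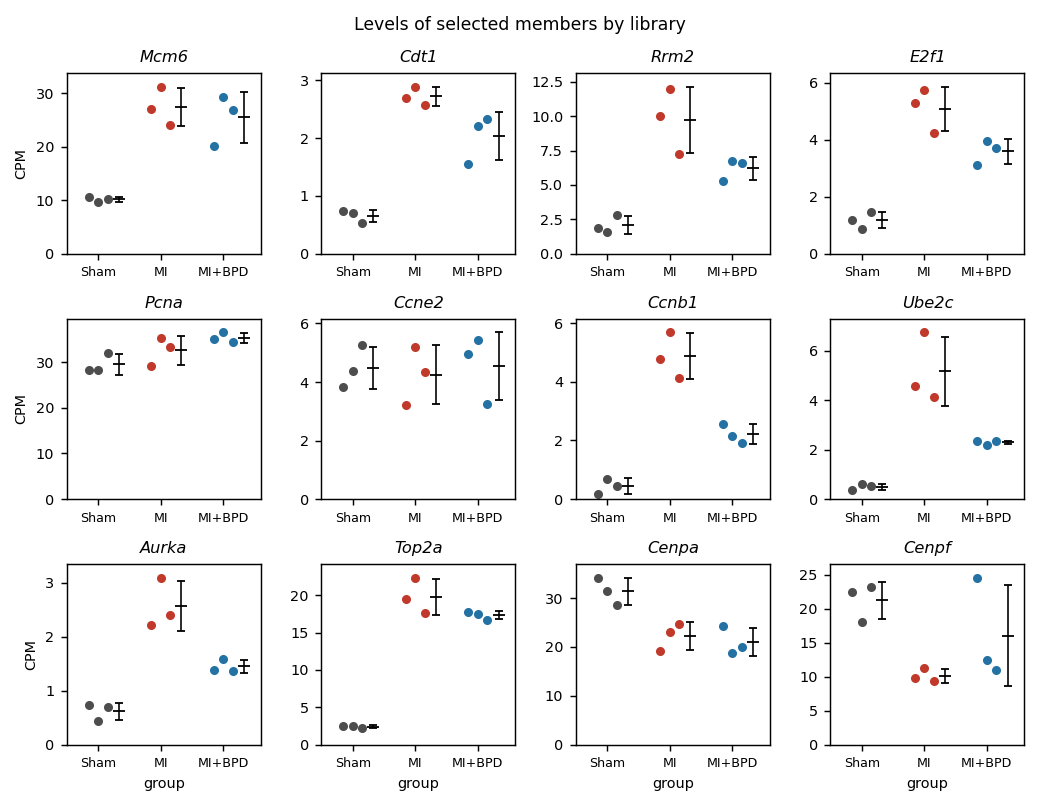
CPM (y axis, from 0) of 12 of the genes in each library of sham, MI and MI+BPD (x axis), with the mean and SD of 3 libraries as black bars. Pcna and Ccne2 overlap between sham and MI, Ccnb1, Ube2c and Aurka are ordered MI, MI+BPD, sham without overlap, and MI+BPD 1 stands apart in Cenpf.

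Replication and mitosis genes were compared directly within each library. The 18 replication genes had a mean log2 CPM of 1.78 ± 0.12 in sham and 2.92 ± 0.16 in MI, with 2.71 ± 0.14 in MI+BPD (SD over 3 libraries). For the 24 mitosis genes these values were 0.34 ± 0.12, 2.49 ± 0.19 and 2.12 ± 0.14. Both means were higher in every infarct library than in every sham library. In MI+BPD the mitosis mean lay below MI in all 3 libraries, by 0.37, and the replication mean overlapped that of MI. The mitosis level minus the replication level came to -1.56, -1.33 and -1.45 in sham libraries, to -0.33, -0.42 and -0.52 in MI libraries and to -0.37, -0.75 and -0.66 in MI+BPD libraries. It was higher in every infarct library than in every sham library, by 1.02 in MI and 0.85 in MI+BPD on average, and MI and MI+BPD overlapped. The difference and both means hold all members, also those that passed the filter only with infarct libraries. More of those were mitosis genes, so the filter favours a higher difference in infarct libraries. No level was computed without them. In single genes, 22 of 24 mitosis genes had a larger change in MI than the replication median, and 0 of 18 replication genes exceeded the mitosis median. Without the 11 genes under 10 counts in every sham library these were 12 of 14 and 1 of 17, and the difference between the 2 medians was 1.34. Ccna2, Cdk1, Tpx2, Cenpe, Gins2 and Ccne1, which also passed the filter only with infarct libraries, are still among these. With all members the difference between the 2 medians was 1.52, and it was 1.32 without Sham 1, 1.62 without Sham 2 and 1.52 with library totals alone. Of the genes under 10 counts in every sham library, 10 were mitosis genes and 1, Cdt1, a replication gene.

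**Figure D4:**
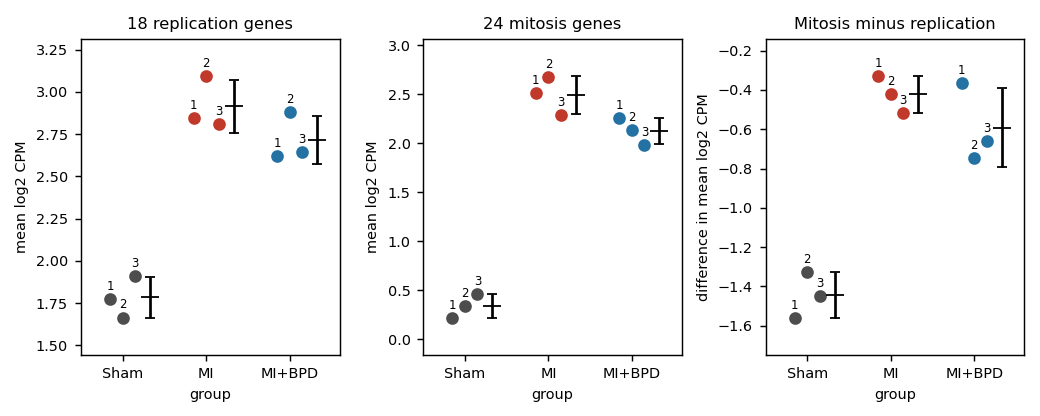
Mean log2 CPM of the 18 replication genes, of the 24 mitosis genes, and their difference (y axes) in each numbered library of the 3 groups (x axis), with the mean and SD of 3 libraries in black. The difference rises from between -1.56 and -1.33 in sham to between -0.52 and -0.33 in MI. Genes that passed the filter only with infarct libraries are included.

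Further genes of each process were taken from lists written from textbook knowledge, with earlier results of these data known. Of 44 other replication genes tested, 24 were called higher in MI against sham and 8 lower, with a median of 0.44. Uhrf1, which couples DNA methylation to replication, rose by 2.34 ± 0.21, Mcm10, a helicase cofactor, by 2.39 ± 0.31, and Dbf4, the activator of the Cdc7 kinase, by 1.42 ± 0.18. Mcm10, Pole2, Clspn and Chaf1b had 11, 17, 17 and 18 reads in all over the sham libraries, so they passed the filter through the infarct groups and had to differ. No count was made without such genes. Gmnn (geminin), the inhibitor of Cdt1, fell by 1.83 ± 0.25. Orc3, an origin recognition subunit, was at -0.45, Dut, which removes dUTP, at -0.72, and Rpa1, of the single-strand binding complex, at -0.37. All 3 were called lower on the TMM scale, and with library totals alone they were at 0.29, 0.02 and 0.36. With library totals alone 41 of the 44 were called higher (93.2%) and 1 lower, beside 69.3% of all genes called higher and 11.7% lower on that scale.

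Of 49 other mitosis genes tested, 46 were called higher and 2 lower, with a median of 2.50, close to the 2.56 of the mitosis genes above. Many of these genes had few sham reads. Cdca5, Kif14, Kif18b and Kif2c had 5, 6, 7 and 9 reads in all over the sham libraries. Nek2 and Ttk had 10 each, Nuf2 and Cdca3 11 each, and Kif15 and Kif22 12 each. Ndc80, Knl1, Ncapg and Spc25 had 14, 15, 18 and 20. Such genes passed the filter through the infarct groups and had to differ. The counts called and the median of this list rest in part on them, and no count was made without them. Racgap1 and Prc1, both of the central spindle, rose by 2.71 ± 0.20 and 3.11 ± 0.24 (Prc1 shares 11.1% of its exon bases with Rccd1), and Ckap2l, a spindle protein, by 2.79 ± 0.22. Pttg1 (securin), which holds back separase until anaphase, fell by 1.44 ± 0.16. Spc24, of the Ndc80 kinetochore complex, was called lower at -1.14 ± 0.22, and with library totals alone it was at -0.41 and did not pass (adjusted p = 0.109). Of 22 regulators around cyclin D, E2F and the DREAM complex, 8 were called higher (36.4%) and 5 lower (22.7%), with a median of 0.24, so that the share called higher was close to that of all genes (37.0%) and the share called lower was below the 31.9% of all genes. E2f2, an activator E2F, rose by 3.52 ± 0.38 and Cdk6, the partner of cyclin D, by 1.30 ± 0.11. Tfdp2, a dimer partner of E2F, and E2f6, a repressor E2F, fell by 1.16 ± 0.14 and 1.21 ± 0.16. Lin52, of the MuvB core, and Rb1, the retinoblastoma protein, were called lower at -0.48 and -0.33, and with library totals alone they were at 0.25 and 0.40.

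In MI+BPD against MI none of the 42 genes passed, yet most lay lower. With edgeR's quasi-likelihood test, 0 genes of 15138 were called higher (0%) and 0 lower (0%), and the smallest adjusted p of any gene was 0.369. At an unadjusted p under 0.05, 1305 genes were higher and 738 lower. At that level 6 of the 42 genes were lower, against 4.88% of all genes, and 1 (Cenpf) was higher. The log2 change was below 0 in 37 of the 42 genes, against 49.3% of all genes. With library totals alone it was below 0 in 41 genes, against 79.5% of all genes. All 3 MI+BPD libraries lay below all 3 MI libraries for 16 genes, against 7.32% of all genes. These were 5 of 18 replication genes (Mcm4, Cdc6, Cdt1, Rrm2 and E2f1) and 11 of 24 mitosis genes (Ccna2, Ccnb1, Ccnb2, Foxm1, Aurka, Aurkb, Tpx2, Cdc20, Ube2c, Kif20a and Kif23). With library totals alone the count was 19 of 42, against 19.2% of all genes, and without MI 3 it was 25, against 19.6% of all genes. The median change was -0.22 in the replication genes and -0.38 in the mitosis genes, beside 0.003 over all genes. Without MI 2 these medians were -0.09 and -0.25, and without the 11 genes under 10 counts in every sham library -0.22 and -0.28. This comparison and that of MI against sham share the MI libraries.

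**Figure D5:**
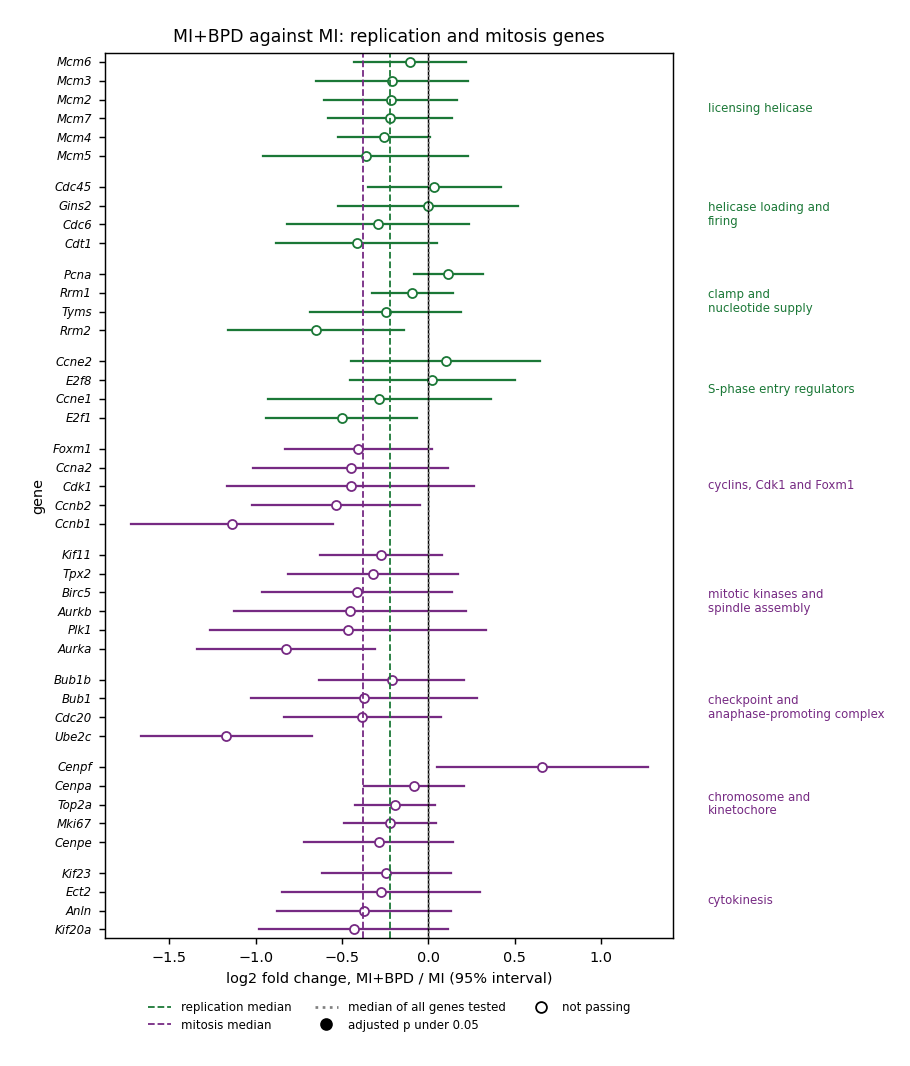
Log2 fold change of MI+BPD over MI (x axis) with its 95% interval for each of the 42 genes (y axis), ordered by role, with open points for genes not passing. Most points lie below 0, with medians of -0.22 (replication) and -0.38 (mitosis), and Ube2c and Ccnb1 lie lowest.

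The 5 genes of smallest p were Ube2c, Ccnb1, Aurka, Rrm2 and E2f1, all with an adjusted p of 0.369. Ube2c stood at 4.59, 6.76 and 4.14 CPM in MI and at 2.34, 2.21 and 2.34 in MI+BPD, beside 0.366, 0.612 and 0.534 in sham. The MI+BPD libraries were nearly equal and lay below every MI library. The change was -1.17 ± 0.22 (unadjusted p = 4.31e-04 by edgeR's quasi-likelihood test), or 55.6% lower with a 95% interval of 37.4% to 68.5%. Ccnb1 changed by -1.14 ± 0.26, 54.5% lower (95% interval 31.7% to 69.7%), and Aurka by -0.82 ± 0.23, 43.5% lower (95% interval -1.34 to -0.31). Rrm2 changed by -0.65 ± 0.23 and E2f1 by -0.50 ± 0.19. All 5 lay without overlap between sham and MI. DESeq2 called 48 genes, Ccnb1 (adjusted p = 0.0237) and Ube2c (0.0324) among them, and limma-voom with quality weights called 992, with Ube2c, Ccnb1, Aurka, Rrm2, E2f1 and Anln (adjusted p of 0.0391 to 0.0493). Without MI 3, edgeR called 1353 genes, with Rrm2, Ccnb1 and Ube2c among them. Over all alternatives the adjusted p of Ube2c ran from 0.0324 to 0.932 and that of Ccnb1 from 0.0237 to 0.987.

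The other 37 genes in this comparison had log2 changes of -0.53 (Ccnb2) to 0.66 (Cenpf). The 95% interval held 0 in 35 of the 42 genes. It excluded a drop by 1 on the log2 scale in 17 of 18 replication genes, Rrm2 being the exception, and in 15 of 24 mitosis genes. The 6 Mcm genes had changes of -0.36 to -0.11, each with 0 inside its interval. Cenpf was at 0.66 ± 0.27, a value in which MI+BPD 1 (24.6 CPM) stood apart from MI+BPD 2 and MI+BPD 3 (12.5 and 10.97 CPM). Pcna, Ccne2, Cdc45 and E2f8 were the other genes above 0, by 0.02 to 0.12. In other mitosis genes, 45 of 49 lay below 0, with a median of -0.32, and without overlap 18 were lower and 0 higher. In other replication genes, 28 of 44 lay below 0, with a median of -0.08, and without overlap 3 were lower and 3 higher. Of all genes, 49.3% lay below 0, and without overlap 7.32% were lower and 6.63% higher, so the other replication genes were near the share of all genes without overlap.

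Single libraries weighed on these values. Among the MI libraries, MI 2 was highest in 33 of the 42 genes and MI 3 lowest in 29. Among the MI+BPD libraries, MI+BPD 1 was highest in 13 of 24 mitosis genes and lowest in 9 of 18 replication genes. MI+BPD 2 was highest in 11 of 18 replication genes, and MI+BPD 3 was lowest in 17 of 24 mitosis genes. MI 3 and MI+BPD 1 were also the libraries of their groups with the largest mitochondrial share and the highest cardiomyocyte markers, given below.

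Ratios of paired genes within a library do not depend on the scaling. Ribonucleotide reductase needs both subunits, and Rrm2 stood at 0.0897, 0.0826 and 0.142 reads per read of Rrm1 in sham, at 0.310, 0.343 and 0.262 in MI, and at 0.160, 0.243 and 0.233 in MI+BPD. The 3 groups did not overlap, with MI highest. Ccne2 stood at 6.0, 8.33 and 4.93 reads per read of Ccne1 in sham, at 2.38, 3.05 and 2.85 in MI, and at 4.15, 3.42 and 3.37 in MI+BPD. Again no groups overlapped, and MI+BPD lay between MI and sham. Ccnb2 stood at 2.0, 0.625 and 1.33 reads per read of Ccnb1 in sham, at 0.620, 0.600 and 0.589 in MI, and at 0.698, 1.07 and 1.03 in MI+BPD. MI lay below both other groups, and sham rested on few reads. For each of these differences without overlap the 2-sided exact permutation test gave p = 0.1 (adjusted p = 0.15 over 12 tests), the smallest p that 3 libraries against 3 allow, so that the design could not pass 0.05. Aurkb to Aurka overlapped in all comparisons, with exact permutation p from 0.2 to 0.9.

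In MI+BPD against sham the genes stayed raised. Of the 42 genes, 36 were called higher, against 31.8% of all genes, and 1 (Cenpa) was called lower, against 27.8%. The replication genes had a median log2 change of 0.88, with 14 of 18 called higher, and the mitosis genes 2.09, with 22 of 24 called higher. Bub1 had the largest change, 2.99 ± 0.41, followed by Top2a, 2.85 ± 0.13, and Ect2, 2.75 ± 0.34. Bub1 and Ect2 were under 10 counts in every sham library and had to differ by the filter. Cdc6, Cdc45, Ccne1, Ccne2 and Cenpf did not pass. Pcna passed here at 0.26 ± 0.09 (adjusted p = 0.0341), a call lost in DESeq2 (0.0722), with median-ratio factors (0.0553) and without Sham 1, Sham 2 or any 1 of the MI+BPD libraries (0.0616 to 0.110). Mcm5 (0.95 ± 0.29) lost its call without Sham 1, Sham 2 or MI+BPD 2 (0.0560 to 0.0706). Cenpf was at -0.41 ± 0.27, and at -0.89 without MI+BPD 1 (adjusted p = 8.38e-04). Cenpa was at -0.58 ± 0.13 and, with library totals alone, at -0.06 without passing (adjusted p = 0.616). This comparison shares its libraries with both others.

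Marker genes of the cells in the tissue moved with the infarct, and their part in the results was not tested. In MI against sham, 12 of 12 cardiomyocyte markers were called lower, 10 of 10 fibroblast and 10 of 10 macrophage markers higher, 7 of 8 T and NK cell and 9 of 9 B and plasma cell markers higher, 1 of 7 neutrophil and 1 of 5 mast cell markers higher. Smooth muscle and pericyte markers split, with 4 higher and 3 lower of 10. Of all genes tested, 37.0% were called higher and 31.9% lower. The neutrophil and mast cell counts were below that share, and those of smooth muscle near it. Blood endothelial markers were called lower in 7 of 10 and erythroid precursor markers in 2 of 3, but with library totals alone the mean levels of these 2 lists overlapped between sham and MI. The summed cardiomyocyte markers ran from 102893 to 107049 CPM in sham, from 23033 to 40126 in MI and from 38276 to 57999 in MI+BPD. Fibroblast markers ran from 1201 to 1378 CPM, 15249 to 22424 and 20658 to 22335, and macrophage markers from 377 to 451 CPM, 790 to 1352 and 1011 to 1327. The MI and MI+BPD ranges overlapped in all 3 lists. In MI+BPD against MI no marker passed, but 12 of 12 cardiomyocyte markers lay above 0 (median log2 change 0.66, 8 at an unadjusted p under 0.05). Of all 15138 genes, 49.3% lay below 0, and 1305 were higher and 738 lower at that unadjusted p. In the same comparison 9 of 9 B and plasma cell markers lay below 0 (median -2.87, 6 at an unadjusted p under 0.05), 7 of 8 T and NK cell markers (median -0.44) and 8 of 10 macrophage markers (median -0.12). Fibroblast markers had a median of 0.06, with 4 of 10 below 0. Their mean log2 CPM differed by 0.033 on the TMM scale and by -0.17 with library totals alone. The 42 genes had a median of -0.28 in this comparison, and a link between them and these shifts was not tested. The mean log2 CPM of the mitosis genes was 2.52, 2.68 and 2.29 in MI 1, 2 and 3 and 2.25, 2.13 and 1.98 in MI+BPD 1, 2 and 3. The mean log2 CPM of the cardiomyocyte list was 10.5, 10.6 and 11.4 in MI 1, 2 and 3 and 11.9, 11.3 and 11.3 in MI+BPD 1, 2 and 3. In B and plasma cell markers MI 1 stood apart at 5.77, with 2.37 and 1.21 in MI 2 and 3 and 1.40 to 2.01 in MI+BPD. Of markers of immature red cells, Gata1 had 0 reads in sham and MI, and Rhag and Hemgn had 0 in sham and MI+BPD. The neutrophil marker Ly6g had 0 reads in sham and MI+BPD.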

How the data were processed

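The authors deposited a table of whole-number read counts by gene symbol, with no normalization. STAR and the builds mm10, GRCm39 and mm39 stand in the submitters' processing notes with no role, and the counting program, its annotation and its strand setting were not given, so genes are given by symbol. RNA had an integrity number above 7.0, per the labels' protocols. The 9 libraries were fitted together with edgeR 4.0.16 in R 4.3.3 (TMM factors, filterByExpr with a minimum count of 10, robust quasi-likelihood, 2-sided, 6 residual degrees of freedom), with Benjamini-Hochberg adjustment over 15138 genes and calls at an adjusted p under 0.05. The biological coefficient of variation was 0.167. List levels are mean log2 CPM with a prior count of 2. Exon lengths and overlaps come from GENCODE M21, which may not be the annotation used for counting, and promoters from RefSeq. No pair of libraries agreed within sampling noise (chi-square of at least 4.02 per degree of freedom).

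Members and lists were chosen with earlier results of these data known. In each of 9 roles the members of largest and smallest change in MI against sham and both genes of each ratio pair are given by library. From each further list the 3 called genes of smallest adjusted p and up to 4 called genes that go against its majority are named, and in MI+BPD against MI the 5 members of smallest p. Cenpa by library, the sham range of Mcm5 and the members named for a lost call or an overlap were added after their values were seen. Ratios used a pseudocount of 0.5 in the exact permutation test of their log2 values. Alternatives were DESeq2 1.42.0, limma 3.58.1 (voom with quality weights), other scaling factors, other filters and thresholds, fits of only the compared groups, a replicate block, no mitochondrial genes, and leaving out any 1 library. The joint removal of MI 1 and MI+BPD 1, other scalings and left-out libraries for the overlap counts, and values without the 11 members under 10 counts in every sham library, were added after seeing the data. The fit was tested on simulated counts.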

Additional observations from a re-analysis of the deposited data

How the results depend on the processing

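In MI against sham the 24 mitosis genes were called under every alternative run except library totals alone (22, without Cenpa and Cenpf) and a 2-fold minimum (23, without Cenpa), and the count of replication genes ranged from 13 to 15 when any 1 library was left out. A 2-fold minimum left 5158 genes called in MI against sham and 3801 in MI+BPD against sham, with 8 replication genes in the latter. In MI+BPD against MI the number of calls depended on the tool: edgeR called 0 genes, DESeq2 48 and limma-voom 992. Of these, 2 mitosis genes were called by DESeq2, and 2 replication and 4 mitosis genes by limma-voom. Leaving out 1 library gave 0 to 1353 genes, 0 to 1 replication genes and 0 to 2 mitosis genes, all maxima without MI 3, and 16 to 25 members below MI without overlap. The replicate block gave 10054, 0 and 8457 calls in the 3 comparisons and 37 members below 0, and changed no call of a member. Same-numbered libraries correlated at 0.143, 0.194 and -0.158 in MI+BPD against MI and at -0.094 to 0.003 otherwise. MI+BPD 1 and MI+BPD 2 correlated best with the MI library of their own number, and MI+BPD 3 did not. With 3 libraries in each group, these values cannot decide whether the numbers pair the libraries.

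Directions that turned under alternatives other than library totals alone were of values near 0. The cause of turned directions was not tested. With library totals alone the log2 change in MI against sham became 0.65 in Ccne2, 0.23 in Cenpa, 0.29 in Orc3, 0.017 in Dut, 0.36 in Rpa1, 0.25 in Lin52 and 0.40 in Rb1. All of these but Ccne2 had been called lower on the TMM scale. Orc3, Rpa1 and Rb1 passed as higher with library totals alone (adjusted p = 0.0192, 0.0033 and 0.0029 by edgeR's quasi-likelihood test). On the same scale the change in MI+BPD against MI became -0.18 in Cdc45, -0.089 in Pcna, -0.20 in E2f8 and -0.11 in Ccne2, and in MI+BPD against sham 0.084 in Cenpf. With limma-voom Ccne2 was at 0.036 in MI against sham, -0.14 in MI+BPD against MI and -0.11 in MI+BPD against sham, and in MI+BPD against MI Cdc45 was at -0.15 and E2f8 at -0.058. Upper-quartile factors put Cdc45 at -0.014 and E2f8 at -0.026 in MI+BPD against MI. DESeq2 put Ccne2 at -0.011 and median-ratio factors at -0.022 in MI+BPD against sham. Without both MI 1 and MI+BPD 1, Ccne2 was at 0.063, -0.15 and -0.084 in the 3 comparisons, and in MI+BPD against MI Mcm6 was at 0.012 and Cdc45 at -0.12. With a pseudocount of 1 the log2 ratio of Aurkb to Aurka changed by -0.0034 in MI against sham. Leaving out 1 library gave these ranges in MI+BPD against MI: Mcm6 -0.22 to 0.015, Cdc45 -0.074 to 0.15, Gins2 -0.20 to 0.21, E2f8 -0.070 to 0.13 and Ccne2 -0.069 to 0.30. The same gave -0.26 to 0.084 for Ccne2 and -0.24 to 0.25 for the log2 ratio of Aurkb to Aurka in MI against sham, and -0.14 to 0.21 for Ccne2 in MI+BPD against sham.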

Other observations

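Genes in common use as markers of dividing cells gave different values in the same libraries, a selection made after the values were seen. In MI against sham Pcna changed 1.10-fold, Mki67 6.16-fold and Top2a 8.24-fold. Mki67 stood at 4.39, 4.72 and 4.80 CPM in sham libraries, at 32.3, 29.4 and 24.1 in MI libraries and at 25.9, 26.0 and 21.8 in MI+BPD libraries. Per kb of exon, Pcna in sham stood at 12.3 CPM per kb, above every other member of both groups.

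Gmnn and Pttg1, both usually expressed in cycling cells, were lower in MI, also with library totals alone. Cdt1 rose in MI while Gmnn, whose product holds Cdt1 back after S phase has begun, fell from 42.1 ± 1.04 to 11.9 ± 3.90 CPM (SD, n = 3 each). Pttg1, the inhibitor of separase, fell from 79.8 to 29.4 CPM on average, while Cdc20, which directs its breakdown, rose. E2f2 was at -1.02 ± 0.28 in MI+BPD against MI, beside -0.50 ± 0.19 for E2f1, with an adjusted p of 0.369 for both.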
